A study of Homo sapiens with 4 samples.

Results

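The genes described here are those of the human mitochondrial genome, chosen as every gene that GENCODE 29 places on chrM. They number 37 among the 58735 genes of the deposited tables and comprise 13 mRNAs, 2 rRNAs and 22 tRNAs. By annotated strand, 28 are transcribed from the heavy strand (12 mRNAs, 2 rRNAs and 14 tRNAs) and 9 from the light strand (MT-ND6 and 8 tRNAs). RNA sequencing was done on 4 libraries of HT8, a human cell line given as colon cancer in the labels. The genotype label of 2 libraries was control, and that of the other 2 was PPDPF knockdown; the latter carry the cell name HT8-cas1. How the knockdown was made, whether it is 1 clone, and what HT8 and cas1 mean is stated in no source used here. The question the design sets is which transcripts differed between the 2 groups.

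Human mitochondria keep a small circular genome that codes for core subunits of the respiratory chain and ATP synthase and for the rRNAs and tRNAs that translate them. Each strand is transcribed as a long precursor from promoters in or beside the control region, and most mRNAs and rRNAs are cut free where tRNAs are excised between them. All other proteins that copy, transcribe, process, stabilise and decay this genome and its RNA come from nuclear genes.

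Of the tRNA genes in the first group of sequences, MT-TN, MT-TC and MT-TP carried nearly all tRNA reads, MT-TY came next in reads, and MT-TL1 had the lowest fold of the members called. The mRNA after them is the one member that was called higher. They are the reference sequences of the GENCODE 29 transcripts, 5′ to 3′ on the annotated strand, on GRCh38, and were not read from these libraries. In the tRNAs the capitals mark the anticodon. MT-TN (asparagine, chrM:5657-5729), MT-TC (cysteine, chrM:5761-5826), MT-TY (tyrosine, chrM:5826-5891) and MT-TP (proline, chrM:15956-16023) lie on the minus strand, that is, they are transcribed from the light strand. MT-TL1 (leucine, chrM:3230-3304) lies on the plus strand, directly between MT-RNR2 and MT-ND1.
MT-TN: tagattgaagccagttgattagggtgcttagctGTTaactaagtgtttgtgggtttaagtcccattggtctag
MT-TC: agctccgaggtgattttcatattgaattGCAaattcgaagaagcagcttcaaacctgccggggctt
MT-TY: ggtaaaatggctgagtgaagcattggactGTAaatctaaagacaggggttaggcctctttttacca
MT-TP: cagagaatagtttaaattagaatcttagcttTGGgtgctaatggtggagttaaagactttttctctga
MT-TL1: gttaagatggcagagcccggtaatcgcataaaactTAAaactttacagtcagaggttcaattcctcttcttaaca
In MT-ATP8 (chrM:8366-8572, plus strand), the capitals mark the last 46 of 207 bases, which are also the first bases of MT-ATP6.
MT-ATP8: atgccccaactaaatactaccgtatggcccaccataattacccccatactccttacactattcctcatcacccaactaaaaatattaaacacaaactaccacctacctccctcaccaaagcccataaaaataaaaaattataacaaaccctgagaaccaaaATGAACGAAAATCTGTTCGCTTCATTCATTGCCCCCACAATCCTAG

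The libraries held 17348315 and 19479906 reads in genes (control replicates 1 and 2) and 17330674 and 17069628 (knockdown replicates 1 and 2). The targeted gene, PPDPF, showed no lower level under the knockdown label: it stood at 237 and 266 FPKM in the controls and at 281 and 283 FPKM in the others (fold 1.12, limma adjusted p = 0.0940). These libraries are therefore named by their label throughout. FPKM are reads normalised to the length of the gene and to the size of the library. All 5 epithelial and all 5 intestinal markers had a mean of at least 1 FPKM. The summed epithelial markers were 2502 to 2673 FPKM in the controls and 2987 to 3010.1 FPKM in the libraries labelled knockdown, and the summed intestinal markers 179 to 201 and 210.0 to 210.2 FPKM. Both libraries labelled knockdown lay above both controls for 4 of the 5 epithelial markers and below both for 1. For the intestinal markers these counts were 3 and 1. Among the 12777 genes with a mean of at least 1 FPKM, these shares were 35.9% and 33.8%. Of 5 leukocyte markers 1 reached 1 FPKM (3 were at 0, summed level 1.99 to 2.18 against 1.16 to 1.21 FPKM). None of 5 fibroblast markers did (3 at 0, 0.221 to 0.241 against 0.107 to 0.109 FPKM), nor any of 5 endothelial markers (2 at 0, 0.166 to 0.245 against 0.142 to 0.252 FPKM). The part of these shifts in the results was not tested. The labels name no separate cultures within a group, and all p-values rest on how far these 4 samples spread, which may be technical only.

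RNA of the mitochondrial genome took a smaller share of the reads in both libraries labelled knockdown. It made up 2.87% and 2.76% of reads in genes in the controls and 2.35% and 2.19% in the libraries labelled knockdown, a ratio of means of 0.806. The groups did not overlap. Sums of recovered reads are given as RPM, that is, per 1000000 reads in genes. Messenger RNAs summed to 26096 and 24878 RPM in the control pair and 21737 and 20021 RPM in the pair labelled knockdown (ratio 0.819). Ribosomal RNAs summed to 2203 and 2361 RPM in the control pair and 1581 and 1640.0 RPM in the pair labelled knockdown (ratio 0.706). The tRNA genes summed to 363 and 372 RPM in the control pair and 190.2 and 191 RPM in the pair labelled knockdown (ratio 0.518), the lowest ratio of the 3 classes. In each class both libraries labelled knockdown lay below both controls, and the exact two-sided permutation test gave p = 0.333, the smallest that 2 against 2 libraries allow. All these values are shares of reads and give no amount per cell. In bulk RNA, fewer mitochondrial genomes per cell, less RNA per genome and more RNA of nuclear genes cannot be told apart.

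**Figure D1:**
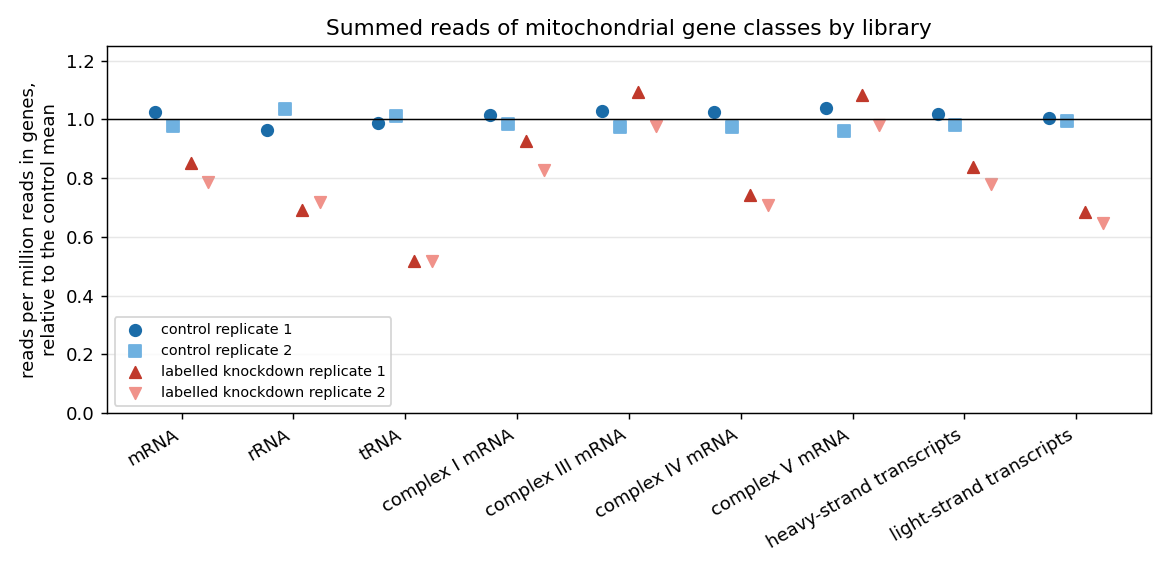
Summed RPM of each mitochondrial gene class (y axis, each library divided by the mean of the 2 controls) for the 4 libraries, 1 point per library. The tRNA and light-strand points labelled knockdown lie farthest below 1, those of complex IV and rRNA lie between, and those of complexes III and V overlap the controls.

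Gene by gene, 26 of the 37 members (13 mRNAs, 2 rRNAs and 11 tRNAs) had a mean of at least 1 FPKM and were tested. Differences were tested on log2(FPKM + 1) with limma over 12777 genes, and called at an adjusted p under 0.05; on this scale the change of low genes is understated. Of the 26, 14 fell and 1 rose. Over all genes tested, 13% fell and 16.8% rose. The median fold was 0.870 for the 13 mRNAs, 0.763 for the 2 rRNAs and 0.671 for the 11 tRNAs, against 1.00 over all genes tested. The tRNA median is the value of MT-TE, which had 17 reads in all. For the 7 tRNAs with a mean FPKM of at least 5 it was 0.519. Without knockdown replicate 2 the count that fell was 9. The 2 libraries labelled knockdown lay below both controls for 16 of the 26 genes and above both for 3; over all genes tested these shares were 33.8% and 35.9%.

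Both rRNAs fell, the one of the large ribosomal subunit more than the other. MT-RNR2 (ENSG00000210082, chrM:1671-3229), the large subunit rRNA, stood at 1226 and 1308 FPKM in the control pair and 871 and 909 FPKM in the pair labelled knockdown. Both of the latter lay below both controls (fold 0.703, log2 fold change -0.51, SE 0.04, limma adjusted p = 0.00239). MT-RNR1 (ENSG00000211459, chrM:648-1601), the small subunit rRNA, stood at 275 and 316 FPKM in the control pair and 241 and 246 FPKM in the pair labelled knockdown. Its groups did not overlap either, but the controls lay farther apart (fold 0.827, log2 fold change -0.27, SE 0.07, limma adjusted p = 0.0376). It was no longer called without knockdown replicate 1 (limma adjusted p = 0.129) and without knockdown replicate 2 (adjusted p = 0.108). The ratio of MT-RNR2 to MT-RNR1 in FPKM was 4.45 and 4.14 in the control pair and 3.61 and 3.70 in the pair labelled knockdown, lower in both of the latter. How ribosomal RNA was handled in library preparation is not stated in the labels, and its part in these levels was not tested.

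The mRNAs of cytochrome c oxidase, complex IV, which passes electrons to oxygen, all fell and were the 3 most abundant transcripts of the whole table by mean FPKM. MT-CO1 (ENSG00000198804, chrM:5904-7445), its catalytic subunit, stood at 4444 and 4127 FPKM in the control pair and 2912 and 2717 FPKM in the pair labelled knockdown. The 2 groups were far apart relative to the spread within each (fold 0.657, log2 fold change -0.61, SE 0.05, limma adjusted p = 0.00252). MT-CO2 (ENSG00000198712, chrM:7586-8269), which takes electrons from cytochrome c, stood at 4246 and 4229.7 FPKM in the control pair and 3299 and 3132 FPKM in the pair labelled knockdown. Its groups did not overlap (fold 0.759, log2 fold change -0.40, SE 0.04, limma adjusted p = 0.00269). MT-CO3 (ENSG00000198938, chrM:9207-9990), a further core subunit and the most abundant transcript of all, stood at 4539 and 4384 FPKM in the control pair and 3885 and 3875 FPKM in the pair labelled knockdown. Here too both libraries labelled knockdown were lower, by a smaller margin (fold 0.870, log2 fold change -0.20, SE 0.03, limma adjusted p = 0.0113). With quantile normalization MT-CO2 was at a log2 fold change of 0.038, and scaled to the mitochondrial mRNA sum MT-CO3 was at 0.015. The MT-CO3 call was lost without control replicate 1 (limma adjusted p = 0.0522) and without knockdown replicate 2 (adjusted p = 0.0501). Summed, the complex IV mRNAs took 47.1% and 46.4% against 41.5% and 42.6% of the mitochondrial reads in control and knockdown-labelled libraries, a lower share in both of the latter.

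Of the 7 mRNAs of complex I, NADH dehydrogenase, 4 fell and none rose, against 13% and 16.8% of all genes tested. Those that fell included MT-ND1, MT-ND2 and MT-ND3. MT-ND1 (ENSG00000198888, chrM:3307-4262) stood at 1112 and 1149 FPKM in the control pair and 741 and 642 FPKM in the pair labelled knockdown. It had the lowest fold of the 13 mRNAs (0.611; log2 fold change -0.71, SE 0.07, limma adjusted p = 0.00345), and both libraries labelled knockdown lay well below the controls. MT-ND2 (ENSG00000198763, chrM:4470-5511) stood at 1211 and 1176 FPKM in the control pair and 1040.0 and 931 FPKM in the pair labelled knockdown. These groups did not overlap (fold 0.825, log2 fold change -0.28, SE 0.06, limma adjusted p = 0.0243), but the call was lost without control replicate 1 (adjusted p = 0.102) or control replicate 2 (adjusted p = 0.0722). MT-ND3 (ENSG00000198840, chrM:10059-10404) stood at 3035 and 3087 FPKM in the control pair and 2709 and 2608 FPKM in the pair labelled knockdown. It was lower in both libraries labelled knockdown (fold 0.868, log2 fold change -0.20, SE 0.03, limma adjusted p = 0.0120), and was not called without control replicate 2 (adjusted p = 0.0576) or knockdown replicate 2 (adjusted p = 0.0511).

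The other complex I mRNAs lie farther along the genome. MT-ND4L and MT-ND4, which share 7 bases and 1 bicistronic mRNA, did not pass the test. With quantile normalization both were called higher, as were 1948 of the 12777 genes tested. Limma-voom on recovered reads with the divisor of the authors called MT-ND4L higher, among 2790 genes. MT-ND4L (ENSG00000212907, chrM:10470-10766) stood at 2348 and 2329.8 FPKM in the control pair and 2639.9 and 2369 FPKM in the pair labelled knockdown. Both of the latter lay above the controls, knockdown replicate 2 only just (fold 1.07, log2 fold change 0.10, SE 0.06, limma adjusted p = 0.252, 95% interval of the log2 fold change -0.05 to 0.24). MT-ND4 (ENSG00000198886, chrM:10760-12137) stood at 2685 and 2521 FPKM in the control pair and 2685 and 2383 FPKM in the pair labelled knockdown, and its groups overlapped (fold 0.972, log2 fold change -0.04, SE 0.07, limma adjusted p = 0.678, interval -0.21 to 0.13). MT-ND5 (ENSG00000198786, chrM:12337-14148), the least abundant complex I mRNA, stood at 489.8 and 477 FPKM in the control pair and 469 and 401 FPKM in the pair labelled knockdown. Knockdown replicate 1 lay close to the controls and knockdown replicate 2 below them, and the gene was not called (fold 0.898, log2 fold change -0.15, SE 0.08, limma adjusted p = 0.192). Limma-voom on recovered reads, by which 21.2% of all genes tested were lower and 19.6% higher, called it lower (adjusted p = 0.00223), as did the fit without knockdown replicate 1 (adjusted p = 0.0268).

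MT-ND6 (ENSG00000198695, chrM:14149-14673), the fourth that fell, is the only mRNA transcribed from the light strand. It stood at 599 and 572 FPKM in the control pair and 526 and 476 FPKM in the pair labelled knockdown. Its groups did not overlap (fold 0.855, log2 fold change -0.23, SE 0.06, limma adjusted p = 0.0389). The call was lost without control replicate 1 (limma adjusted p = 0.147), control replicate 2 (adjusted p = 0.0824) or knockdown replicate 2 (adjusted p = 0.0969). Relative to MT-ND5, which ends beside it on the opposite strand, MT-ND6 in FPKM was 1.22 and 1.20 in the control pair and 1.12 and 1.19 in the pair labelled knockdown. The ratio of knockdown replicate 2 was close to those of the controls. Whether counting used strand is not stated, so reads of MT-ND6 and reads of the opposite strand cannot be told apart.

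No mRNA of complex III or V was called lower. With quantile normalization MT-CYB and MT-ATP6 were called higher, as were 1948 of the 12777 genes tested. MT-CYB (ENSG00000198727, chrM:14747-15887), cytochrome b of complex III, stood at 1249 and 1189 FPKM in the control pair and 1352 and 1213 FPKM in the pair labelled knockdown. Knockdown replicate 2 lay between the controls, so the groups overlapped (fold 1.05, log2 fold change 0.07, SE 0.06, limma adjusted p = 0.413, interval -0.08 to 0.23). MT-ATP6 (ENSG00000198899, chrM:8527-9207), the proton channel subunit of ATP synthase, stood at 2969 and 2759.7 FPKM in the control pair and 3150.4 and 2855 FPKM in the pair labelled knockdown, again with overlap (fold 1.05, log2 fold change 0.07, SE 0.06, limma adjusted p = 0.456, interval -0.09 to 0.23). MT-ATP8 (ENSG00000228253, chrM:8366-8572), a small membrane subunit of ATP synthase, was the one member that rose. It had only 105 and 117 reads in the control pair and 114 and 117 reads in the pair labelled knockdown, which gave 28.8 and 28.8 against 31.9 and 33.3 FPKM (fold 1.13, log2 fold change 0.17, SE 0.04, limma adjusted p = 0.0262). Both libraries labelled knockdown lay above both controls. The call was lost with each library left out in turn (adjusted p between 0.0591 and 0.112) and by limma-voom on recovered reads (adjusted p = 0.533, 95% interval of the log2 fold change -0.22 to 0.53, against 0.08 to 0.27 on FPKM). Both ATP synthase genes are translated from 1 bicistronic mRNA and overlap as shown above, and reads in the shared 46 bases cannot be told apart. Only the other 161 bases of MT-ATP8 are its own. MT-ATP8 over MT-ATP6 in FPKM was 0.0097 and 0.0104 in the control pair and 0.0101 and 0.0117 in the pair labelled knockdown. Why it stood so far below a gene on the same mRNA was not tested. The FPKM of MT-ATP8 may therefore not give the level of that mRNA.

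Ratios of mRNAs within a library do not depend on scaling; those given here were chosen with the gene values known and restate them. MT-CO1 over MT-CYB in FPKM was 3.56 and 3.47 in the control pair and 2.15 and 2.24 in the pair labelled knockdown. MT-ND1 over MT-CYB was 0.890 and 0.966 in the control pair and 0.548 and 0.529 in the pair labelled knockdown. Within complex IV, MT-CO1 over MT-CO3 was 0.979 and 0.941 in the control pair and 0.750 and 0.701 in the pair labelled knockdown. None of these 3 ratios overlapped between the groups. Unequal folds thus stood within complexes too, as MT-ND4L (1.07) and MT-ND4 (0.972) lay nearer to MT-CYB (1.05) than to MT-ND1 (0.611) of their own complex. Complex I mRNAs took 31.7% and 31.9% against 35.3% and 33.9% of the mitochondrial reads, a higher share in both libraries labelled knockdown although their RPM were lower (ratio 0.878). Complex III and complex V mRNAs in RPM had ratios of 1.04 and 1.03, with overlapping groups.

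**Figure D2:**
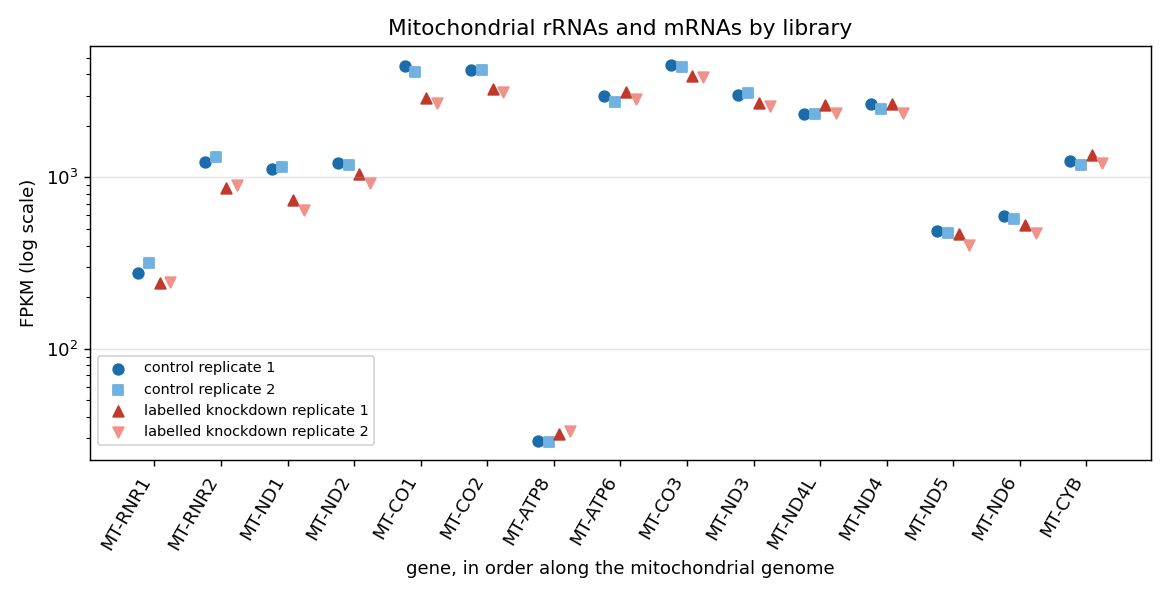
FPKM (log axis) of the 2 mitochondrial rRNAs and 13 mRNAs in each of the 4 libraries, in order along the genome, 1 point per library. Points labelled knockdown lie below the controls from MT-RNR1 to MT-CO2 and at MT-CO3, MT-ND3, MT-ND5 and MT-ND6, and among or above them at MT-ATP8, MT-ATP6, MT-ND4L and MT-CYB; at MT-ND4, 1 lies level with the higher control and 1 below both.

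Reads on the 22 tRNA genes came almost wholly from 3 of them, MT-TN, MT-TC and MT-TP, all transcribed from the light strand and all lower in the libraries labelled knockdown. MT-TN, the asparagine tRNA, had 3731 and 4232 reads in the control pair and 1708 and 1685 reads in the pair labelled knockdown. Per length these are 2906 and 2949.6 against 1356 and 1361 FPKM, and the gap between the groups was far wider than the spread within them (fold 0.464, log2 fold change -1.11, SE 0.03, limma adjusted p = 0.000597). MT-TC, the cysteine tRNA, had 1400 and 1707 reads in the control pair and 748 and 728 reads in the pair labelled knockdown, or 1206 and 1316 against 657 and 651 FPKM. The 2 groups were likewise far apart (fold 0.519, log2 fold change -0.95, SE 0.05, limma adjusted p = 0.00106). MT-TP, the proline tRNA beside the control region, had 1007 and 1168 reads in the control pair and 745 and 792 reads in the pair labelled knockdown, or 842 and 874 against 635 and 687 FPKM. Its groups did not overlap, and its difference was smaller (fold 0.770, log2 fold change -0.38, SE 0.05, limma adjusted p = 0.00579).

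The next tRNAs in abundance had far fewer reads. MT-TY, the tyrosine tRNA that touches MT-TC, had 87 and 74 reads in the control pair and 45 and 19 reads in the pair labelled knockdown. Knockdown replicate 2 was much lower than knockdown replicate 1, and the gene was not called (fold 0.406, log2 fold change -1.30, SE 0.39, limma adjusted p = 0.0620, 95% interval of the log2 fold change -2.30 to -0.30). It was called lower by limma-voom on recovered reads (adjusted p = 0.00306) and without knockdown replicate 1 (adjusted p = 0.0134). MT-TL1, the leucine tRNA between MT-RNR2 and MT-ND1, had 47 and 40 reads in the control pair and 13 and 12 reads in the pair labelled knockdown, or 35.6 and 27.1 against 10.04 and 9.44 FPKM. It fell more than any other member that was called (fold 0.334, log2 fold change -1.58, SE 0.13, limma adjusted p = 0.00205), and both of its neighbours fell as well. MT-TE (glutamic acid, chrM:14674-14742) had 6 and 5 reads in the control pair and 3 and 3 reads in the pair labelled knockdown. It was called lower on FPKM (fold 0.671, log2 fold change -0.58, SE 0.13, limma adjusted p = 0.0276). With 17 reads in all it was not called by limma-voom on these reads (adjusted p = 0.503), nor without control replicate 1 (adjusted p = 0.0695), knockdown replicate 1 (adjusted p = 0.0961) or knockdown replicate 2 (adjusted p = 0.0907).

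MT-TG (glycine, chrM:9991-10058) had 5 and 7 reads in the control pair and 16 and 8 reads in the pair labelled knockdown, higher in both of the latter but not called (fold 1.90, limma adjusted p = 0.0719). With a minimum mean FPKM of 5, MT-TG was called higher, as were 1999 of the 7876 genes then tested. The other tested tRNAs, MT-TD, MT-TR, MT-TH and MT-TL2, had 6 to 25 reads over the 4 libraries and were not called. The 11 tRNAs that were not tested had 0 to 4 reads over the 4 libraries; MT-TQ, MT-TW and MT-TS1 had none, and a count of 0 allows up to 3 reads. For these a difference was not detectable at this depth. Reads of mature tRNAs and of unprocessed precursors cannot be told apart in these values. No source used here says whether counting used strand. Reads of MT-TN, MT-TC, MT-TY and MT-TP, like those of MT-ND6, and reads of the opposite strand therefore cannot be told apart either.

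**Figure D3:**
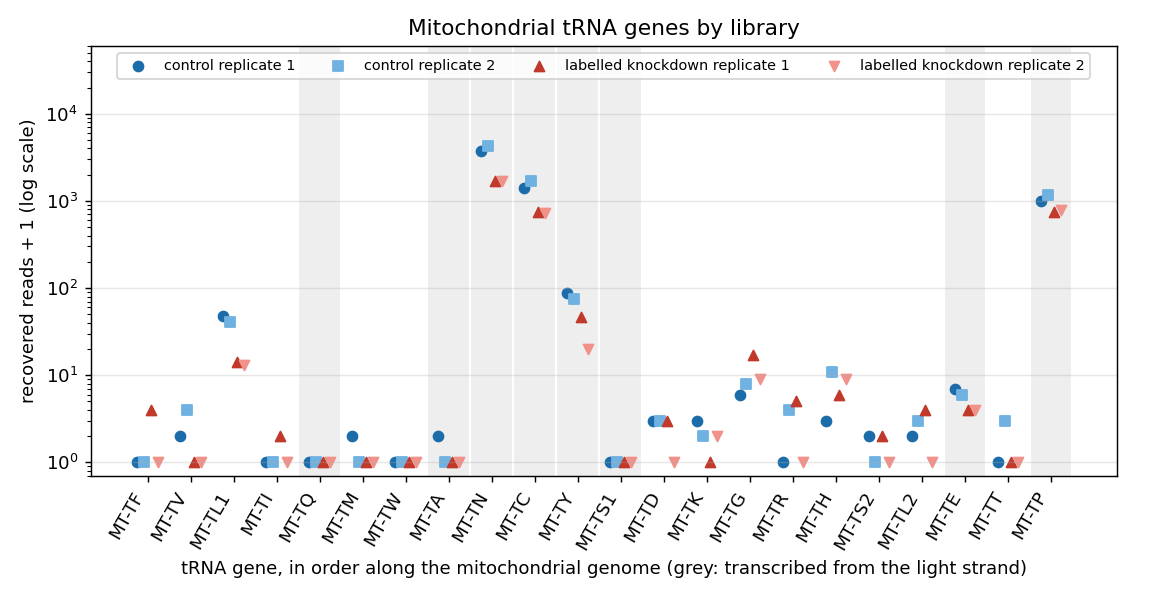
Recovered reads plus 1 (log axis) on each of the 22 tRNA genes in order along the mitochondrial genome, 1 point per library, with genes transcribed from the light strand on grey. MT-TN, MT-TC and MT-TP have at least 728 reads in every library, and in each the 2 points labelled knockdown lie below the 2 control points.

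Few bases around most mitochondrial tRNA genes are free of other genes. MT-TN has a gap of 31 bases to MT-TC, the place of the light-strand replication origin, and a window of 105 bases that no other gene covers. MT-TC has a window of 96 bases. MT-TK (lysine) has a window of 96 bases too, but only 4 reads over the 4 libraries. MT-TL1, MT-TY and MT-TA (alanine) each have a window of 77 bases and had 112, 225 and 1 reads in all. MT-TF and MT-TP, beside the control region, were given no window and were left out, though MT-TP had 3712 reads in all. Over the 20 tRNA genes with such a window, reads on the log scale and its length had a Spearman rho of 0.33. The Pearson r was 0.69. Both are a description across genes that share the same libraries.

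By annotated strand, the sum of light-strand genes lay farther below the controls than that of heavy-strand genes. Whether counting used strand is not stated, so reads may come from either strand. Of 20 tested heavy-strand genes, 9 fell and 1 rose, with a median fold of 0.878. Among 6 tested light-strand genes, 5 fell and none rose, with a median fold of 0.590. Over all genes tested, 13% fell and 16.8% rose. Light-strand genes summed to 678 and 672 RPM in the control pair and 462 and 437 RPM in the pair labelled knockdown (ratio 0.666), and heavy-strand genes to 27984 and 26939 RPM in the control pair and 23046 and 21415 RPM in the pair labelled knockdown (ratio 0.810). The ratio of light-strand to heavy-strand FPKM was 0.188 and 0.198 in the control pair and 0.123 and 0.131 in the pair labelled knockdown, lower in both of the latter, with an exact two-sided permutation p of 0.333. The light-strand sum per length is mostly MT-TN and MT-TC, and the one light-strand mRNA, MT-ND6, had a fold of 0.855 beside a median fold of 0.884 for the 12 heavy-strand mRNAs. Of the 6 tested heavy-strand tRNAs, MT-TL1 alone fell, and the 5 not called had 6 to 36 reads over the 4 libraries. Of the 5 tested light-strand tRNAs MT-TN, MT-TC, MT-TP and MT-TE fell. Heavy-strand tRNA genes summed to 3.57 and 3.59 RPM in the controls and 2.77 and 1.70 RPM in the pair labelled knockdown (ratio 0.623). Light-strand tRNA genes had a ratio of 0.517. Light-strand over heavy-strand tRNA FPKM was 104.5 and 105.0 in the controls and 67.5 and 113.0 in the others, with overlap. Set against the nearest heavy-strand mRNA, MT-TN over MT-ND2 in FPKM was 2.40 and 2.51 in the control pair and 1.30 and 1.46 in the pair labelled knockdown. MT-TN over MT-TC was 2.41 and 2.24 in the control pair and 2.06 and 2.09 in the pair labelled knockdown, a smaller difference.

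To describe changes within the mitochondrial transcriptome, FPKM were scaled so that the 13 mRNAs summed to the same in every library. This moved the median log2 fold change of all genes tested to 0.19. On this scale 8 of the 26 tested members were called lower and 5 higher, where 3.8% of all genes tested were called lower and 34.4% higher. The lower ones were MT-RNR2 (fold 0.816, adjusted p = 0.0377, limma), MT-TL1 (fold 0.385, adjusted p = 0.000282), MT-ND1 (fold 0.709, adjusted p = 0.00330), MT-TN (fold 0.539, adjusted p = 0.000382), MT-TC (fold 0.603, adjusted p = 0.00110), MT-TY (fold 0.470, adjusted p = 0.0247), MT-CO1 (fold 0.763, adjusted p = 0.00616) and MT-TE (fold 0.753, adjusted p = 0.0318). All 8 were also below both controls in FPKM as deposited. The higher ones were MT-ATP6 (fold 1.22, adjusted p = 0.0206, limma), MT-ATP8 (fold 1.30, adjusted p = 0.0103), MT-CYB (fold 1.22, adjusted p = 0.0181), MT-ND4L (fold 1.24, adjusted p = 0.0139) and MT-TG (fold 2.16, adjusted p = 0.00897). The remaining mRNAs, MT-ND2, MT-CO2, MT-CO3, MT-ND3, MT-ND4, MT-ND5 and MT-ND6, and MT-RNR1 and MT-TP were not called. The mRNAs thus changed unequally, and this scaling cannot show which of them did not change per cell.

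**Figure D4:**
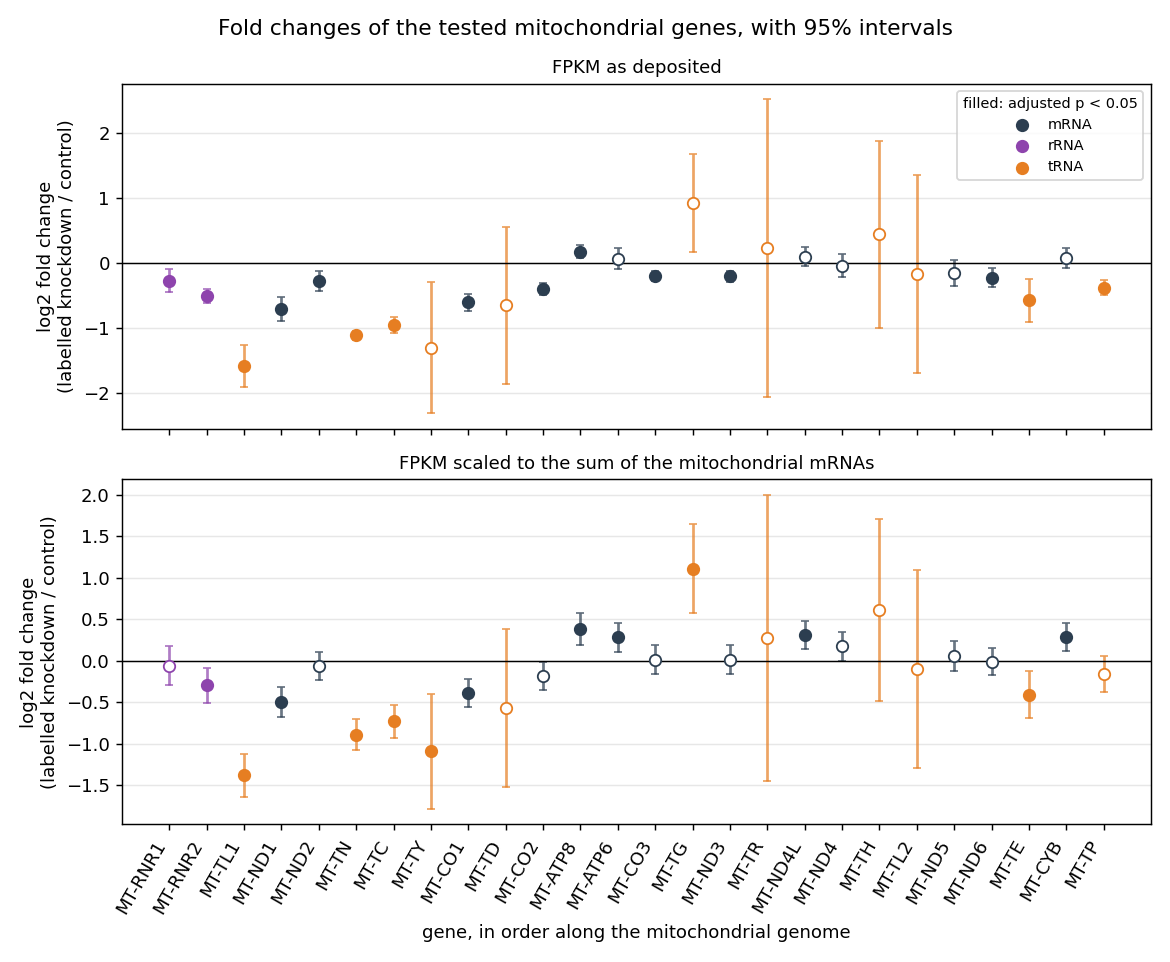
Log2 fold change (libraries labelled knockdown over control) of the 26 tested mitochondrial genes in genome order, from FPKM as deposited (top) and from FPKM scaled to the mitochondrial mRNA sum (bottom). Bars are 95% intervals, filled points have an adjusted p under 0.05, and colour marks mRNA, rRNA or tRNA; MT-TL1, MT-ND1, MT-TN, MT-TC and MT-CO1 lie below 0 in both panels, and MT-ATP6, MT-CYB and MT-ND4L are called higher only in the lower one.

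Of 125 tested nuclear genes that serve this genome, from 6 lists, 16 rose and 16 fell, with a median fold of 0.995. Against the 16.8% and 13% of all genes tested given above, the share that rose was below the background and the share that fell close to it. With each library left out in turn, 6 rose and 4 to 7 fell. Genes named from each list are those with the smallest p. Levels are means ± SD over n = 2 libraries in each group.

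In the list of 10 factors of mitochondrial RNA stability and decay, 3 fell and none rose (median fold 0.976). Over all genes tested, 13% fell and 16.8% rose. PNPT1, the exoribonuclease that degrades mitochondrial RNA, went from 19.8 ± 1.12 FPKM in the controls to 12.97 ± 0.339 FPKM in the libraries labelled knockdown (fold 0.671, adjusted p = 0.00270, limma). LRPPRC, which with SLIRP keeps mitochondrial mRNAs stable and polyadenylated, went from 43.0 ± 0.237 FPKM in the controls to 31.5 ± 0.822 FPKM in the libraries labelled knockdown (fold 0.739, adjusted p = 0.00203). For both genes the groups did not overlap and the calls held with each library left out. SLIRP, its partner, stood at 16.6 and 18.2 against 14.9 and 15.2 FPKM (fold 0.872, adjusted p = 0.0471), and was not called in 3 of the 4 fits with a library left out. TACO1, which activates translation of MT-CO1 mRNA, stood at 16.2 and 16.8 against 15.2 and 15.7 FPKM and was not called (fold 0.940, adjusted p = 0.182).

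Of 15 tested members of the transcription list, 1 rose and 2 fell (median fold 0.943), against 16.8% and 13% of all genes tested. TFB2M, an initiation factor of the mitochondrial RNA polymerase, went from 29.1 ± 0.758 FPKM in the controls to 22.9 ± 1.78 FPKM in the libraries labelled knockdown (fold 0.793, adjusted p = 0.0161, limma), and was not called in 2 of the 4 fits with a library left out. The 28 tested genes within 5 Mb of it had a median fold of 0.797. TFAM, which packs the genome and starts transcription, stood at 11.7 and 11.1 against 9.45 and 9.54 FPKM (fold 0.847, adjusted p = 0.0207). ESRRA, a nuclear receptor that regulates respiratory genes, stood at 34.6 and 34.1 against 39.7 and 38.8 FPKM (fold 1.14, adjusted p = 0.0155). The calls of TFAM and ESRRA were lost with any library left out. MRPL12, a ribosomal protein that also binds the polymerase, was not called (fold 0.860, adjusted p = 0.0660).

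Of 20 RNA processing factors, 2 fell and none rose (median fold 0.971), against 13% and 16.8% of all genes tested. The 2 that fell were DDX28, a helicase of ribosome assembly, at 13.4 and 13.1 against 11.1 and 10.8 FPKM (fold 0.844, adjusted p = 0.0141, limma), and ELAC2, which cuts tRNA 3′ ends, at 20.4 and 19.8 against 17.4 and 18.3 FPKM (fold 0.894, adjusted p = 0.0458). Both calls were lost with any library left out. ANGEL2 (fold 0.874, adjusted p = 0.0604) and the helicase DHX30 (fold 0.915, adjusted p = 0.0733) were not called. Of 25 enzymes that modify tRNA or rRNA, 3 rose and 5 fell (median fold 0.977), against 16.8% and 13% of all genes tested. NSUN2, a tRNA methyltransferase, rose (27.0 and 28.1 against 34.6 and 34.7 FPKM; fold 1.25, adjusted p = 0.00451), and the 17 tested genes within 5 Mb of it had a median fold of 1.22. PUS1, a pseudouridine synthase, fell (12.3 and 11.5 against 9.28 and 8.91 FPKM; fold 0.785, adjusted p = 0.0101), as did the rRNA methyltransferase MRM1 (fold 0.811, adjusted p = 0.0202) and GTPBP3, which modifies the wobble base of tRNAs (fold 0.857, adjusted p = 0.0206). With a library left out, PUS1 was not called in 2 of the 4 fits, MRM1 in 3 and GTPBP3 in 4.

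Among 26 tested factors of mitochondrial DNA maintenance, 5 rose and 4 fell (median fold 1.01), against 16.8% and 13% of all genes tested. SUCLA2, a subunit of succinyl-CoA ligase whose loss depletes the genome, went from 7.69 ± 0.298 FPKM in the controls to 14.7 ± 0.257 FPKM in the libraries labelled knockdown (fold 1.80, adjusted p = 0.00116, limma). The 46 tested genes within 5 Mb of it had a median fold of 1.18. SSBP1, the single-stranded DNA binding protein of replication, stood at 14.2 and 13.4 against 19.0 and 19.6 FPKM (fold 1.37, adjusted p = 0.00368), and the 45 tested genes within 5 Mb of it had a median fold of 1.20. LONP1, the matrix protease, fell (64.3 and 61.8 against 50.7 and 48.6 FPKM; fold 0.791, adjusted p = 0.00469). These 3 calls held with each library left out. TOP1MT, the mitochondrial topoisomerase, was called higher (fold 1.32, adjusted p = 0.0114) but not in 3 of the 4 fits with a library left out, and the 81 tested genes within 5 Mb of it had a median fold of 1.45.

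Of 29 tested nuclear subunits of the respiratory chain and ATP synthase, 7 rose and none fell (median fold 1.05). Over all genes tested, 16.8% rose and 13% fell. CYC1, cytochrome c1 of complex III, went from 77.8 ± 0.263 FPKM in the controls to 117 ± 0.0147 FPKM in the libraries labelled knockdown (fold 1.49, adjusted p = 0.000904, limma), held its call with each library left out, and the 81 tested genes within 5 Mb of it had a median fold of 1.45. ATP5PB, a stator subunit of ATP synthase, stood at 52.0 and 50.4 against 61.5 and 59.8 FPKM (fold 1.18, adjusted p = 0.00851). SDHA, the flavoprotein of complex II, stood at 25.4 and 25.98 against 30.3 and 32.3 FPKM (fold 1.21, adjusted p = 0.0111), and the 26 tested genes within 5 Mb of it had a median fold of 1.21. Both were not called in 1 of the 4 fits with a library left out. COX6C, a complex IV subunit, was called higher (26.9 and 26.8 against 30.7 and 31.0 FPKM; fold 1.14, adjusted p = 0.0135) and lost its call with any library left out, while the 3 mitochondrial subunits of that complex fell. For the other genes named from these lists, the median fold of tested genes within 5 Mb lay between 0.955 (PUS1) and 1.04 (SLIRP). Whether the copy number of any of these chromosome regions differs between the groups was not tested.

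**Figure D5:**
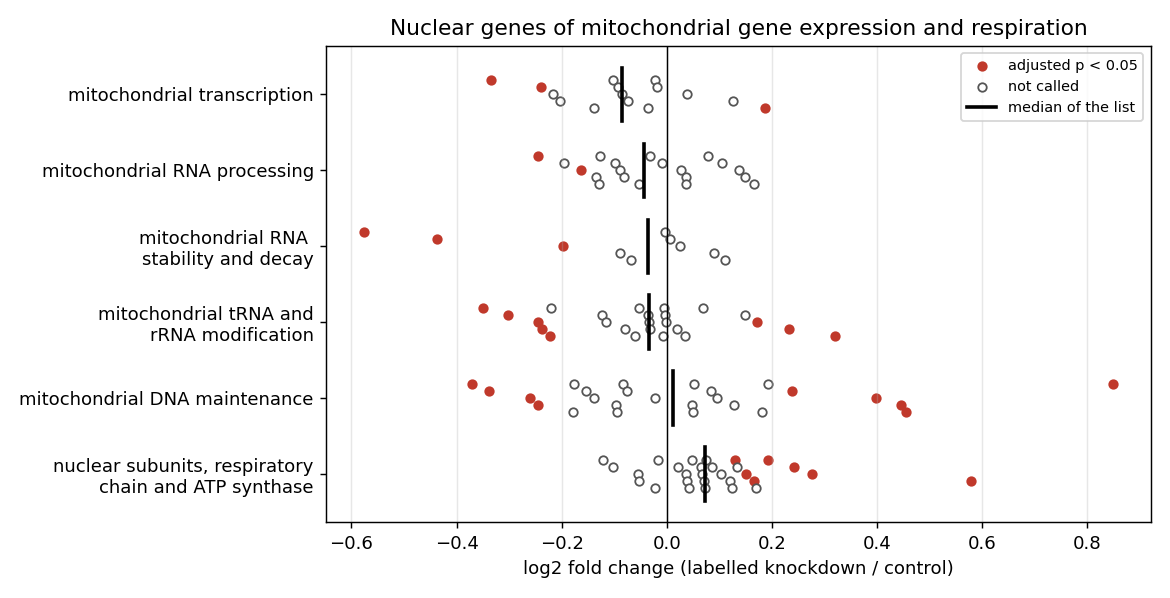
Log2 fold change (libraries labelled knockdown over control, x axis) of each tested nuclear gene in 6 lists, 1 point per gene, filled where the adjusted p is under 0.05, with a bar at the list median. Points lie on both sides of 0 in every list, called subunits of the respiratory chain and ATP synthase lie to the right, and those of RNA stability and processing to the left.

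Nuclear copies of mitochondrial genes can share reads with the genome itself. Of 407 such genes by symbol, 69 had reads and 3 were tested, with 5860 and 6538 reads over all copies in the controls and 6031 and 5292 in the libraries labelled knockdown. MTND2P28 (chromosome 1, 629640 to 630683 on GRCh38), a copy of MT-ND2, stood at 99.8 and 99.5 against 89.2 and 78.6 FPKM and was called lower (fold 0.842, adjusted p = 0.0408, limma), but not in 3 of the 4 fits with a library left out. MT-ND2 had a fold of 0.825. MTCO1P12, a copy of MT-CO1, stood at 10.3 and 9.36 against 8.79 and 7.49 FPKM and was not called (fold 0.842, adjusted p = 0.0911). MTATP6P1, a copy of MT-ATP6, stood at 303 and 305 against 343 and 309.5 FPKM and was not called (fold 1.07, adjusted p = 0.215). How reads were split between these near-identical copies is not stated, so values of MT-ND2, MT-CO1 and MT-ATP6 are uncertain to that extent. The same holds for other mitochondrial mRNAs and rRNAs whose copies were not tested. The copies' levels are no independent support for any of these genes.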

How the data were processed

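RNA of 4 libraries was sequenced, 2 labelled control and 2 labelled PPDPF knockdown, grouped by the genotype label. Trizol extraction is given per the labels' protocols. HISAT2 2.0.5 and hg18 are named in the submitters' processing notes; the counter, its strand setting and any selection of RNA are stated in no source used here. The authors deposited FPKM per gene, 1 table per library. All 58735 gene IDs matched GENCODE 29, so its GRCh38 positions are given. The chrM sequences of hg18 and GRCh38 differ, and which one the reads were mapped to is unknown, which bears on positions and counts of all members. FPKM times exon length gave whole reads for 100% of values (tolerance 0.01 of a read). The divisor of the authors differed from the reads in genes by 1.37%, 0.895%, -0.415% and -0.664%.

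The 12777 genes whose mean FPKM reached 1 were compared by limma-trend in limma 3.58.1 (R 4.3.3), using log2(FPKM + 1), with 2 residual degrees of freedom, two-sided, Benjamini-Hochberg adjusted over all genes tested, at 0.05. Sums over genes used recovered reads and an exact permutation test over libraries. Intervals of log2 fold changes come from the fit and rest on the spread between libraries; the floor of 3 reads covers counting error only. The libraries of a group differed by more than counting noise (chi-square per gene 2.43 for the controls and 2.31 for the others), so neither group was treated as 1 library deposited in 2 copies; this does not show separate cultures. The members and lists were chosen with earlier results of these data known. Full statistics are given for the members called and for every mRNA and rRNA, and for up to 4 tested genes with the smallest p of each nuclear list. FASTKD4 is listed once, as TBRG4. The 13 alternatives were quantile normalization, scaling to reads outside the mitochondrial genome or to the mitochondrial mRNA sum, limma-voom on recovered reads (2 library sizes), a minimum mean FPKM of 5 or none, 0.1 as pseudocount, a block for replicate number, and each library left out. Python 3.11.15, pandas 2.3.3, numpy 2.4.6 and matplotlib 3.10.9 were used.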

Additional observations from a re-analysis of the deposited data

How the results depend on the processing

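The calls of MT-TL1, MT-ND1, MT-TN and MT-TC held under all 13 alternatives, and those of MT-RNR2 and MT-CO1 were lost only with no filter (limma adjusted p = 0.0509 and 0.132). Of the 26 tested members, 14 fell and 1 rose. The count that fell was 8 scaled to the mitochondrial mRNA sum, 4 with no filter and 9 to 15 with a library left out. The count that rose was 4 with quantile normalization, 5 scaled to the mitochondrial mRNA sum, 0 with limma-voom on total reads and with no filter, 2 at a mean FPKM of at least 5, and 0 to 2 with a library left out. Over all genes, the 2152 that rose became 4391 scaled to the mitochondrial mRNA sum, 1134 with no filter and 1141 to 1345 with a library left out. The 1662 that fell became 486, 734 and 775 to 919 in the same settings, and 2709 by limma-voom on total reads. The 16 nuclear list genes that rose became 47 scaled to the mitochondrial mRNA sum, 8 with no filter and 6 with any library left out. The 16 that fell became 1, 5 and 4 to 7, and 27 by limma-voom on total reads; 1 of the nuclear respiratory subunits, none otherwise, fell with quantile normalization, with limma-voom on total reads and with scaling to reads outside the mitochondrial genome. The scaling to the mRNA sum moves every gene by construction, and the cause of the other shifts was not tested.

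Median log2 fold changes of the mRNAs (-0.20) were 0.00 with quantile normalization and 0.015 scaled to the mRNA sum, and -0.23 to -0.15 with a library left out. For the rRNAs (-0.39) the median was -0.18 scaled to the mRNA sum. For the tRNAs (-0.58) it was -0.95 at a mean FPKM of at least 5 or with a pseudocount of 0.1, and -0.95 to -0.43 with a library left out. Log2 ratios of summed reads under quantile normalization and scaled to the mRNA sum were -0.066 and -0.071 for all members (-0.31 otherwise), -0.036 and -0.048 for mRNAs (-0.29), -0.34 and -0.26 for rRNAs (-0.50), -0.76 and -0.71 for tRNAs (-0.95), and -0.47 and -0.35 for light-strand genes (-0.59). The tRNA ratio was -0.92 with the divisor of the authors and -0.97 to -0.93 with a library left out, and the light-strand ratio -0.63 to -0.55 with a library left out. Quantile normalization gives each rank 1 value in every library, and mitochondrial mRNAs held the top 7 ranks.

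Single log2 fold changes turned their sign as follows. With quantile normalization MT-CO2 was 0.038 and MT-ND4 0.069. Scaled to the mitochondrial mRNA sum, MT-CO3 was 0.015, MT-ND3 0.013, MT-ND4 0.18 and MT-ND5 0.061. With a library left out, MT-ATP6 ranged from -0.0040 to 0.14, MT-CYB from -0.0062 to 0.15 and MT-ND4 from -0.13 to 0.045. Of the tRNAs with 25 reads or fewer, MT-TD ranged from -1.37 to 0.066, MT-TR from -0.87 to 1.32, MT-TH from -0.39 to 1.27 and MT-TL2 from -1.07 to 0.72. Depth limits these and the 11 untested tRNAs.

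With the replicate number as a block, 15 members fell and 1 rose, MT-TY being added (limma adjusted p = 0.0182), and 1899 genes rose and 1405 fell over all genes. No more than the number is known to be shared within the 2 pairs. Deviations of same-numbered libraries from their group means had a correlation of -0.002 over all genes tested. Over the tested mitochondrial genes it was -0.28.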

Other observations

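Along the genome, folds of the 12 mRNAs transcribed from the heavy strand were mostly lower near the promoter, though not in strict order. The 2 rRNAs lie nearer still to the promoter and were not included. Their folds were 0.827 (MT-RNR1) and 0.703 (MT-RNR2). This description was chosen after the values of the mRNAs were seen. The mRNAs nearest to the promoter, MT-ND1 (fold 0.611) and MT-ND2 (0.825), and the next, MT-CO1 (0.657) and MT-CO2 (0.759), had the lowest folds. MT-CO3 (0.870), MT-ND3 (0.868) and MT-ND5 (0.898) lay between, and MT-ATP8 (1.13), MT-ATP6 (1.05), MT-ND4L (1.07), MT-ND4 (0.972) and MT-CYB (1.05) had the highest. Across these 12 genes of the same 4 libraries, log2 fold change and start position along the genome had a Pearson r of 0.69. The Spearman rho, which uses only the order, was 0.64. Over the 11 genes without MT-ATP8 these were 0.77 and 0.79. The same genes differ in base composition and length: r was -0.56 (rho -0.47) against GC content, -0.36 (-0.39) against length and -0.33 (-0.31) against mean level. The part of these properties in the pattern was not tested.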
